A study of Mus musculus with 8 samples.

Results

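The data described here are the 4 RNA-seq libraries of ASZ001 cells treated with DMSO, out of 8 libraries in the whole study. ASZ001 is a mouse basal cell carcinoma line. Of the 4 libraries, 2 came from cells with a non-silencing shRNA (NS cells, genotype given as control) and 2 from cells with an shRNA against Tgfbr1 (knockdown cells, TGFbR1kd). All 4 received DMSO as the only treatment named. The libraries were picked by these labels, and every gene in the table was considered. The comparison itself was chosen with earlier results of these data known. The other 4 libraries, NS and knockdown cells labelled RasV12 and treated with Dox-4OHT, entered the statistical model but are not described for their own sake. The study is about an induced change from basal to squamous cell carcinoma, and this comparison asks how cells with less Tgfbr1 differ from NS cells before Dox-4OHT is given.

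The labels show 1 NS shRNA and 1 Tgfbr1 shRNA population. How many hairpins were used, whether the cells were a pool or a clone, and whether replicates are separate cultures is not stated in the labels. An effect of lower Tgfbr1 and any other difference between the 2 cell populations therefore cannot be told apart. The p-values rest on the spread between 2 libraries per group, and that spread may be technical. In bulk RNA, fewer cells of a type and less RNA per cell cannot be told apart either.

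TGF-beta and activin ligands bind a type II receptor, which recruits and phosphorylates a type I receptor. Tgfbr1, also known as ALK5, is the type I receptor for TGF-beta. It phosphorylates SMAD2 and SMAD3, which enter the nucleus with SMAD4 and change transcription, including that of feedback inhibitors such as Smad7 and Pmepa1. TGF-beta restrains the growth of keratinocytes and controls much of their matrix production. Basal cell carcinoma is driven by Hedgehog signalling and resembles hair follicle and basal epidermis, whereas squamous carcinoma keeps parts of the programme that builds the cornified outer layer of skin.

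Library totals were 12874759 to 16233379 counts in the 4 DMSO libraries. Replicates correlated at 0.997 to 0.998 on the log scale, and each pair differed by more than sampling noise, so no library was counted as a duplicate. The pre-ribosomal RNA entry Rn45s took 0.387% to 1.36% of counts. Keratinocyte markers summed to 27867 to 28216 CPM (counts scaled to library size) in NS libraries and 18586 to 19380 CPM in knockdown libraries, with all 8 markers present. Fibroblast markers summed to 2.75 to 3.92 CPM and immune markers to 5.76 to 9.52 CPM over the 4 libraries, and Thy1, Lum, Col3a1, Cd3e, Cd79a and Tyrobp were at 0 in all of them. Endothelial markers summed to 37.6 to 38.7 CPM in NS and 29.7 to 31.1 CPM in knockdown libraries, mostly from Pecam1, with Kdr, Emcn and Cldn5 at 0 and Cdh5 at 0.5 counts in 1 library. Pigment cell markers summed to 53.1 to 55.5 CPM in NS and 32.5 to 33.6 CPM in knockdown libraries, mostly from Mitf, with Tyr, Dct and Tyrp1 at 0 and Mlana at 0.5 counts in 1 library.

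The knockdown and NS cells differed in many genes, usually by little, and how many depended on the test. DESeq2 called 5922 genes. Of 12538 genes tested with edgeR's quasi-likelihood test, 7763 (61.9%) passed a Benjamini-Hochberg adjusted p of 0.05. Of all tested genes 30.9% were higher in knockdown cells (3877 genes) and 31.0% were lower (3886 genes). The median absolute log2 change over all tested genes was 0.28. A change of at least 2-fold that also passed the test was found in 1342 genes (10.7%), 517 higher and 825 lower. At least 8-fold changes numbered 99 higher and 107 lower. Of the genes past the test 99.9% had groups that did not overlap, so a lack of overlap sets no called gene apart. Counts for gene groups are read against these shares.

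**Figure D1:**
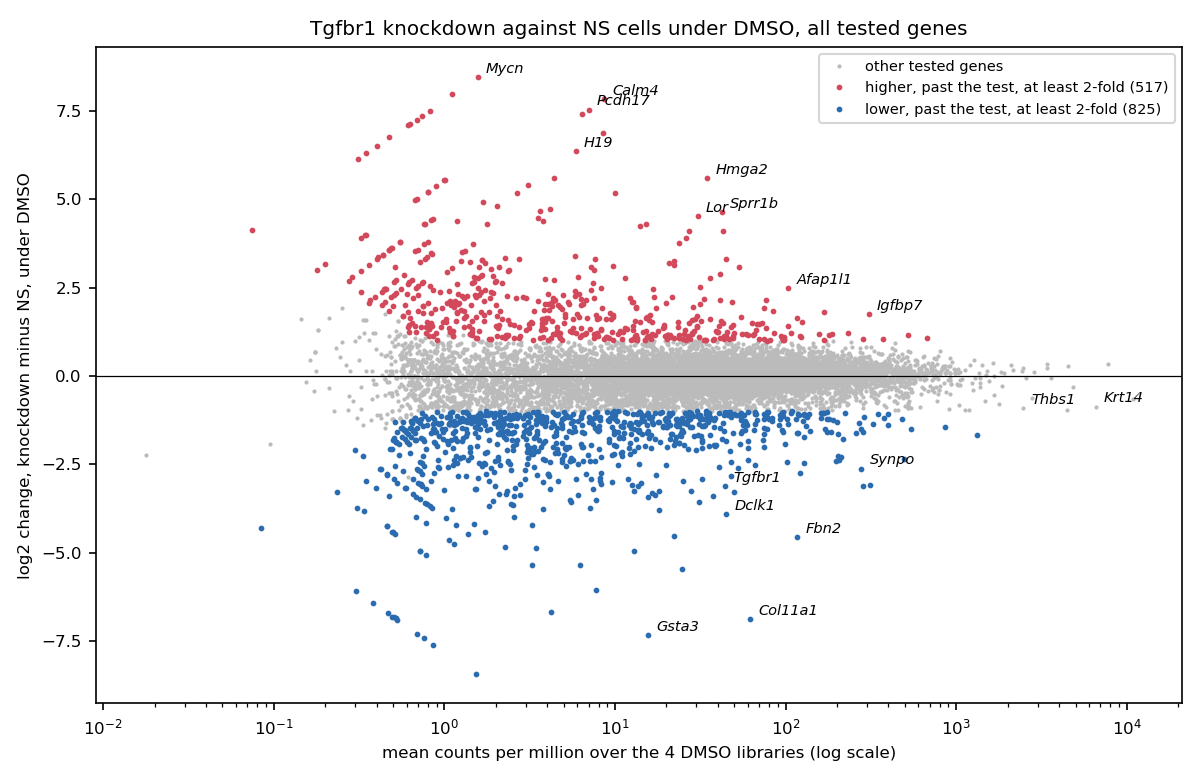
Each point is 1 of the 12538 tested genes, placed by its mean CPM over the 4 DMSO libraries (horizontal, log scale) and its log2 change, knockdown minus NS (vertical). The 517 genes at least 2-fold higher and the 825 at least 2-fold lower that passed the test are coloured, and the diagonal streaks at the left are genes with no or very few counts in 1 group, whose fitted change depends on a small constant added to the counts.

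Tgfbr1 itself was lower in both knockdown libraries. It stood at 77.1 and 80.4 CPM in NS and at 10.2 and 8.08 CPM in knockdown libraries, a log2 change of -3.11 ± 0.09 (SE; adjusted p = 1.72e-19), or 8.66-fold lower. The groups did not overlap, so the libraries matched their labels. Per length, the Tgfbr1 level went from 13.7 to 1.59 RPKM (counts scaled to gene length and library size, group means).

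The partner receptors went mostly the other way. Tgfbr2, the type II receptor that binds TGF-beta first, was at 105 and 105 CPM in NS and 149 and 151 CPM in knockdown libraries (log2 change 0.52 ± 0.04, adjusted p = 1.76e-11). Acvr1b, the type I receptor for activin, rose from 71.9 and 69.8 to 94.8 and 92.1 CPM, and the activin type II receptor gene Acvr2a from 51.9 and 54.3 to 67.7 and 68.4 CPM. In each of these 3 genes both knockdown libraries were above both NS libraries. The co-receptor gene Tgfbr3 had 1 count over both NS libraries and 36 over the knockdown libraries, a ratio of 39.7, with a 95% interval of 6.69 to 1612 from counting error alone. Bmpr1b, a type I BMP receptor, rose from 0.311 and 0.355 to 1.60 and 1.97 CPM.

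Of the 12 receptor genes tested 6 were higher and 4 lower (83.3% past the test, against 61.9% of all tested genes). Besides Tgfbr1 the lower ones were Acvr1c (1.37 and 1.28 against 0.153 and 0.141 CPM), Acvr1 (log2 change -0.23) and Eng (-1.07), of which only Acvr1c kept its call in every alternative. Without knockdown replicate 2, 2 receptors were lower, Acvr1 at an adjusted p of 0.0756 and Eng at 0.133. Acvr1 also lost its call without NS replicate 2 (0.0848), and Eng without NS replicate 1 (0.0855) and with DESeq2 (0.105). The rise of Acvr2b (adjusted p = 0.046) was lost when any 1 of the 4 libraries was left out (0.063 to 0.18) and with DESeq2 (0.21).

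Ligand genes of the family moved apart. Inhbb, which encodes the activin beta B chain, stood at 269 and 263 CPM in NS and 110 and 112 CPM in knockdown libraries (log2 change -1.26 ± 0.04, adjusted p = 2.03e-20). Tgfb2 fell from 86.9 and 77.2 to 32.9 and 34.3 CPM and Inhba, the activin beta A chain gene, from 131 and 136 to 72.7 and 83.1 CPM. Tgfb1 was slightly higher, at 62.0 and 60.0 CPM against 51.4 and 50.02 CPM (log2 change 0.27 ± 0.06), as was Gdf11 (0.39 ± 0.09), while Tgfb3 did not pass the test (adjusted p = 0.961). Of 11 listed ligand genes 6 were tested, 2 of them higher and 3 lower (83.3% past the test, against 61.9% of all tested genes). Nodal, Lefty1, Lefty2 and Mstn were at 0 in all 4 libraries.

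Proteins that store and release latent TGF-beta followed a split of their own. The latent TGF-beta binding proteins tether the inactive ligand to matrix, and 3 of their genes fell. Ltbp1 went from 365 and 365 to 224 and 218 CPM, Ltbp4 from 363 and 351 to 207 and 208 CPM and Ltbp3 from 97.0 and 92.4 to 68.0 and 65.6 CPM. Thbs1, thrombospondin 1, an activator of latent TGF-beta, fell from 3169 and 3229 to 1651 and 1748 CPM. Among integrin genes whose products can release the ligand, some rose. Itgav was at 204 and 196 CPM in NS against 261 and 272 CPM in knockdown libraries, and Itgb6 at 35.8 and 33.3 against 46.7 and 51.7 CPM. Itgb8 fell (log2 change -0.35 ± 0.08). Itgb5 had a log2 change of -0.12, a call that was lost without NS replicate 1 (adjusted p = 0.106), without knockdown replicate 2 (0.0893) and with DESeq2 (0.0561). Of the 11 genes of this group tested, 3 were higher and 6 lower (81.8% past the test, against 61.9% of all tested genes).

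Smad2, Smad3 and Smad4 changed little, while Smad1, Smad6 and Smad9 were lower. Smad3, a direct substrate of the receptor, stood at 67.8 and 61.7 CPM in NS and 63.9 and 60.3 CPM in knockdown libraries (log2 change -0.06 ± 0.06, adjusted p = 0.351). Smad4 was a little higher (0.29 ± 0.04). Of the SMADs that carry BMP signals, Smad1 fell from 68.0 and 63.9 to 44.8 and 46.0 CPM. Smad9 had 38.5 counts over the NS libraries and 3 over the knockdown libraries, a ratio of 11.6 (95% interval 3.64 to 58.1). For Smad2 and Smad5 the changes were -0.13 and -0.11, and both calls were lost when any 1 of the 4 libraries was left out (adjusted p 0.0521 to 0.219) and with DESeq2 (0.136 and 0.148). Smad7, the inhibitory SMAD that TGF-beta induces, had 19.7 and 17.8 CPM in NS and 17.1 and 16.6 CPM in knockdown libraries, and its log2 change of -0.16 ± 0.10 did not pass the test (adjusted p = 0.145). In all, 5 of 18 genes for SMADs and their regulators were higher and 6 lower, at or near the background shares.

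**Figure D2:**
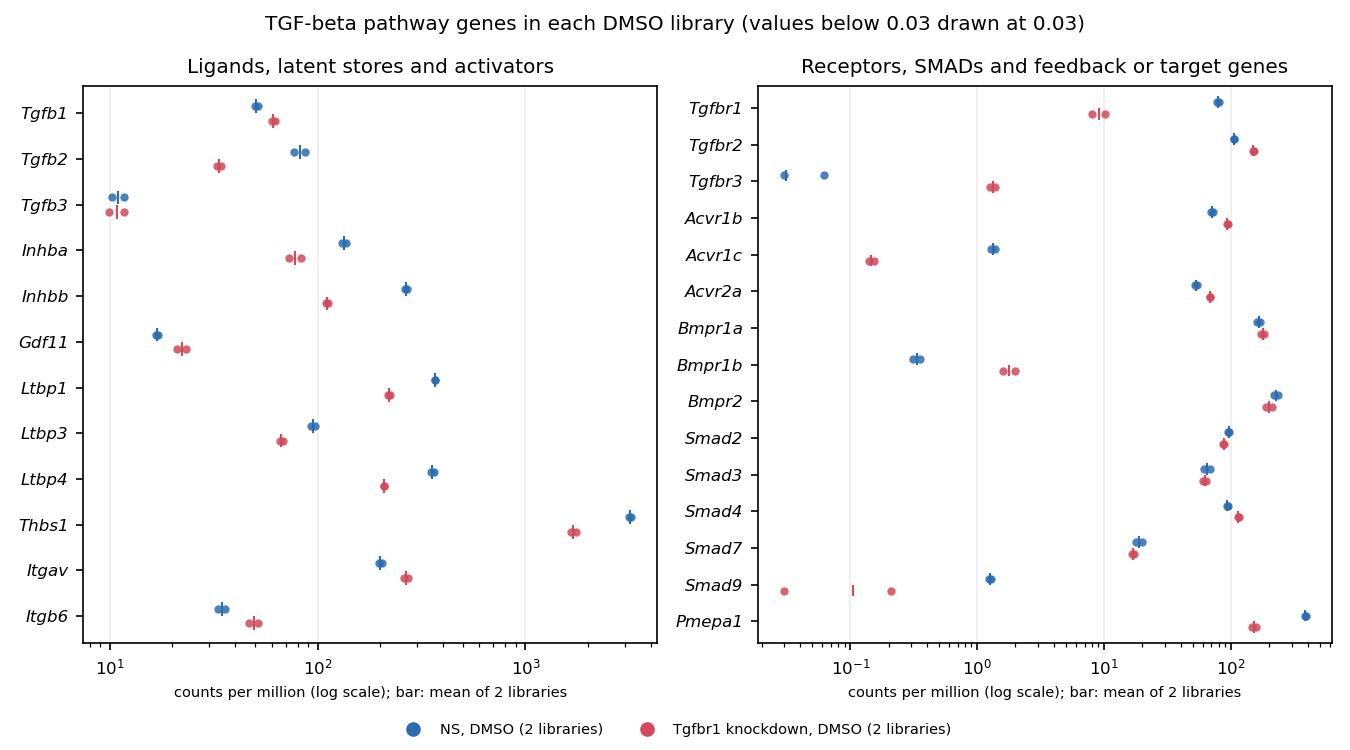
CPM on a log scale of genes of the TGF-beta pathway in each NS library (blue) and knockdown library (red) under DMSO, with a bar at the mean of the 2. Tgfbr1 falls from near 80 to near 9 CPM while Tgfbr2 rises from 105 to about 150 CPM, and the 2 libraries of a group lie close together for most genes.

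Known targets of TGF-beta did not fall as a block. Of 26 listed genes 20 were tested, 10 lower and 4 higher, with a median log2 change of -0.25 against 0.00 over all tested genes. In this group 70.0% passed the test, against 61.9% of all tested genes. Pmepa1, a feedback inhibitor that binds SMADs, fell from 389 and 381 to 147 and 158 CPM (log2 change -1.33 ± 0.04, adjusted p = 1.12e-20). The matrix protease gene Mmp2 fell from 7.59 and 7.53 to 1.45 and 1.83 CPM, and Tgfbi, named for its induction by TGF-beta, from 393 and 360 to 268 and 238 CPM. Against these, Ctgf (log2 change 0.38 ± 0.05), Itgb6 and the basement membrane collagen gene Col4a2 (0.28 ± 0.03) were higher. Fn1, fibronectin, was at 1907 and 1836 CPM in NS and 2205 and 2402 CPM in knockdown libraries and did not pass the test (adjusted p = 0.0693, but 0.0151 with DESeq2 and 5.45e-07 with only the 4 DMSO libraries in the model). Cdkn2b, a cell cycle inhibitor gene that TGF-beta induces in epithelium, stood at 36.6 and 38.4 against 36.7 and 34.0 CPM (adjusted p = 0.292).

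In the BMP branch, 7 of 12 tested ligand and antagonist genes were lower and 3 higher (83.3% past the test, against 61.9% of all tested genes). Bambi, a receptor-like decoy without a kinase domain, fell from 14.5 and 14.4 to 2.29 and 2.04 CPM (log2 change -2.73 ± 0.16, adjusted p = 4.98e-14). Fstl3, which sequesters activin, fell from 27.9 and 29.4 to 14.4 and 15.4 CPM. The ligand gene Bmp4 rose from 12.2 and 14.1 to 25.8 and 28.0 CPM. The Id genes, targets of BMP signalling, split: Id4 fell from 8.46 and 8.10 to 1.53 and 1.55 CPM, whereas Id1 and Id3 rose slightly (log2 changes 0.19 ± 0.05 and 0.18 ± 0.05) and Id2 did not pass (adjusted p = 0.201).

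Genes of the cornified envelope, the cross-linked shell of dead outer keratinocytes, held some of the largest rises. Of 48 such genes found, 33 passed the filter on low counts, 22 of them higher and 5 lower. Among these, 20 were at least 2-fold higher and 2 at least 2-fold lower, and the median log2 change was 2.08. Over all tested genes 30.9% were higher and 10.7% changed at least 2-fold in either direction. Several members entered the test only through their level in knockdown cells.

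Sprr1b, a small proline-rich precursor that is cross-linked into the envelope, had 2.86 and 3.69 CPM in NS and 81.3 and 80.4 CPM in knockdown libraries (log2 change 4.63 ± 0.09, adjusted p = 2.27e-24). Reads of the Sprr family may be shared between its similar members. Lor, loricrin, the main envelope protein, went from 2.49 and 2.56 to 61.9 and 55.1 CPM. Rptn, repetin, a further envelope precursor, went from 0.373 and 0.711 to 22.6 and 16.3 CPM. Each of these genes was at a low level in both NS libraries and well above it in both knockdown libraries.

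These genes lie in the epidermal differentiation complex on chromosome 3. Their upstream sequences are shown because AP-1, the dimer of Fos and Jun proteins, is known to bind promoters of several of these genes. The 160 bases before the start are from RefSeq on the build GRCm38.p6, read 5′ to 3′ on the gene's strand, with matches to the AP-1 motif TGANTCA in capitals. Sbsn, suprabasin, on chromosome 7 is shown beside them as a gene of the same group that fell.
Lor, chr3:92083143-92083302, minus strand: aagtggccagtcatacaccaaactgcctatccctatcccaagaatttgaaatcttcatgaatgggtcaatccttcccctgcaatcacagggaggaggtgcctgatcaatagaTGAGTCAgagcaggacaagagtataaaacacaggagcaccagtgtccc
Sprr1b, chr3:92438780-92438939, minus strand: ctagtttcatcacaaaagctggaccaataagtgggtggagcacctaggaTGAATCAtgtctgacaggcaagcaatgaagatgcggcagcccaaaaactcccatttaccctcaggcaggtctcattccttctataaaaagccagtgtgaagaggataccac
Rptn, chr3:93393539-93393698, plus strand: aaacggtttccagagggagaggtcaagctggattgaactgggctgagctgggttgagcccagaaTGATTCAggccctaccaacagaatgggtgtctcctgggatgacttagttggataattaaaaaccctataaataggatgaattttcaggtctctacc
Sbsn, chr7:30751311-30751470, plus strand: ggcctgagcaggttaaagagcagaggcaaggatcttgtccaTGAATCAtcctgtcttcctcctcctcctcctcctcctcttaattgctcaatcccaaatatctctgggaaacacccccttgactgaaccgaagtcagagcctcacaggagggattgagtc
The matches begin 48, 111, 96 and 119 bases before the start, in that order. Counting 250 bases before the start and both strands, 8 of 22 promoters (36.4%) of the members that were higher held the motif, and 4 of 6 promoters (66.7%) of those that were lower. Over all 32851 promoters in the table the share was 6.75%. The motif was thus found in genes of this group whichever way they changed. A match describes letters in a window, not a bound site.

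Calm4, a calmodulin-like gene of differentiating keratinocytes, had 2 counts over both NS libraries and stood at 20.5 and 13.8 CPM in knockdown libraries, a ratio of 257 (95% interval 70.8 to 2130). Padi4, one of the enzymes that convert arginine to citrulline in proteins, had 12.7 and 12.9 CPM in knockdown libraries against 2 counts in all in NS, a ratio of 193 (53.1 to 1601). Its relative Padi3, already expressed in NS cells at 37.2 and 36.1 CPM, rose to 135 and 128 CPM. The late-stage genes Lce1a1 and Cnfn were read at 0 and 0.5 counts over both NS libraries and at 45 and 34 counts in knockdown cells, so that they were at least 16.6-fold and 12.5-fold higher if NS is set to 3 counts over the group. Krtdap, a differentiation-associated secreted protein, had 2.5 against 89.5 counts, a ratio of 39.5 (13.4 to 416).

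Enzymes and adhesion proteins of the envelope were divided. Asprv1, the protease that processes filaggrin, went from 3.23 and 6.25 to 97.5 and 64.1 CPM (log2 change 4.11 ± 0.39, adjusted p = 0.000958). Cdsn, corneodesmosin, which holds cornified cells together, went from 3.86 and 4.26 to 45.1 and 29.2 CPM, and Tgm1, the transglutaminase that cross-links the envelope, from 1.55 and 1.71 to 6.87 and 6.75 CPM. The replicates of Asprv1, Cdsn and Calm4 were further apart than those of Sprr1b, with knockdown replicate 1 the higher in each. Ivl, involucrin, rose from 0.249 and 0.853 to 2.60 and 2.67 CPM. In contrast, the transglutaminase gene Tgm5 fell (log2 change -0.79), and Tgm3, Padi1 and the desmoglein genes Dsg1a and Dsg1b did not pass the test (adjusted p 0.0872, 0.0563, 0.972 and 0.0705). The call of Tgm5 was lost without knockdown replicate 1 (0.0648) and with DESeq2 (0.0919). Padi1 passed without NS replicate 2 (0.023), and Dsg1b passed, as lower, without NS replicate 2 (0.0398), without knockdown replicate 1 (0.00987) and without the filter on low counts (0.0475).

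Other members of the list changed less, or fell. Krt10, the keratin that marks cells leaving the basal layer, was at 6.84 and 5.12 CPM in NS and 9.32 and 7.73 CPM in knockdown libraries (log2 change 0.49 ± 0.16, adjusted p = 0.00904), a call lost without NS replicate 2 (0.14), without knockdown replicate 1 (0.105) and with DESeq2 (0.0866). Its partner Krt1 was at 0.249 and 0.995 against 2.75 and 0.281 CPM, values that overlap (adjusted p = 0.484, and 0.00165 without knockdown replicate 2). Dmkn, dermokine, a secreted suprabasal protein, fell from 132 and 134 to 54.8 and 46.4 CPM. Sbsn fell from 82.0 and 93.4 to 63.3 and 53.4 CPM, and Spink5, an inhibitor of epidermal proteases, from 213 and 213 to 111 and 104 CPM. These 3 were among the members already well expressed in NS cells, and their knockdown values lay below both NS values. With DESeq2, 3 members were lower in place of 5. Casp14, a caspase of cornifying cells, was also lower (log2 change -1.93) but not with DESeq2 (adjusted p = 0.139) or without knockdown replicate 1 (0.0654).

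Transcription factors of epidermal differentiation changed in both directions, 9 higher and 6 lower of 21 (71.4% past the test, against 61.9% of all tested genes). Grhl3, which drives barrier formation, went from 1.87 and 2.27 to 13.4 and 12.2 CPM (log2 change 2.63 ± 0.16, adjusted p = 8.63e-14). Gata3 rose from 10.2 and 9.81 to 24.3 and 21.2 CPM. Hopx fell from 46.3 and 43.6 to 20.2 and 14.8 CPM, and Klf4, another barrier factor, from 246 and 253 to 203 and 197 CPM. Trp63, the master regulator of stratified epithelium, was 1.2-fold higher, at 447 and 446 CPM against 375 and 369 CPM.

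**Figure D3:**
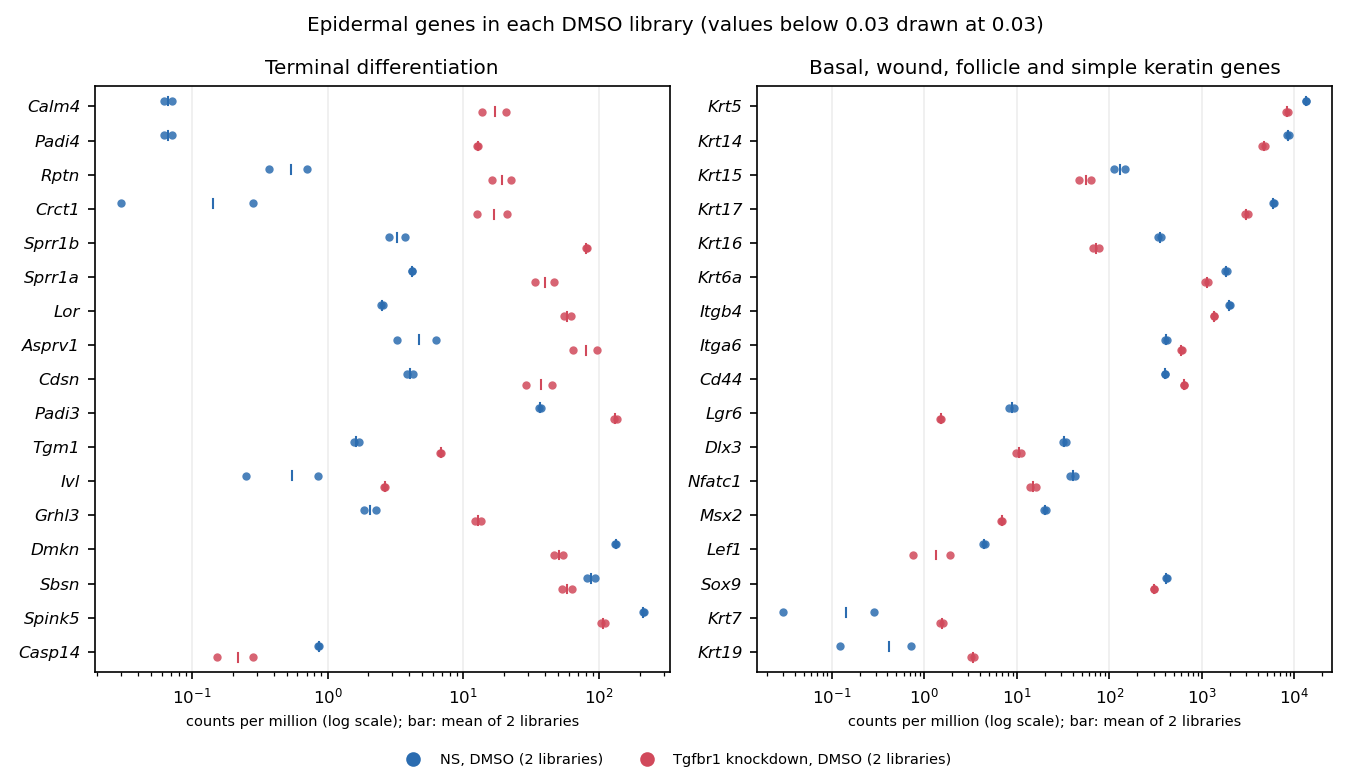
CPM on a log scale of epidermal genes in each NS library (blue) and knockdown library (red) under DMSO, with a bar at the mean of the 2. At left, envelope genes from Calm4 to Grhl3 lie to the right in knockdown cells while Dmkn, Sbsn, Spink5 and Casp14 lie to the left, and at right most basal, wound and follicle genes are lower in knockdown cells while Itga6, Cd44, Krt7 and Krt19 are higher.

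Basal layer genes fell modestly, 10 of 17 lower and 5 higher, with 1 change of at least 2-fold. In this group 88.2% passed the test, against 61.9% of all tested genes. Krt5, the type II keratin of basal cells, went from 13196 and 13279 to 8586 and 8153 CPM. Its partner Krt14 went from 8662 and 8263 to 4785 and 4492 CPM, although reads of Krt14, Krt16 and Krt17 may be shared. Genes of the hemidesmosome, the anchor to the basement membrane, moved apart: Itgb4 fell from 1962 and 1999 to 1344 and 1357 CPM, while its partner Itga6 rose from 419 and 403 to 609 and 591 CPM. Dst, which links hemidesmosomes to keratin, fell (log2 change -0.62 ± 0.03), as did the laminin-332 chain gene Lama3 (-0.46 ± 0.03). Cd44, the hyaluronan receptor gene, rose from 394 and 401 to 640 and 647 CPM.

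Wound keratins were lower. Krt16, induced in injured and hyperproliferative skin, stood at 364 and 335 CPM in NS and 77.8 and 65.8 CPM in knockdown libraries (log2 change -2.29 ± 0.07, adjusted p = 8.48e-11). Krt17 fell from 5962 and 5905 to 3173 and 2887 CPM and Krt6a from 1862 and 1772 to 1156 and 1087 CPM. Krt6b did not pass (adjusted p = 0.147, and 0.000537 without NS replicate 2), and reads of Krt6a and Krt6b may be shared. None of the 4 tested genes of this group was higher. Of 6 genes listed as keratins of simple epithelium 3 were tested, all higher from low levels. Krt8 and Krt18 were below the filter on low counts and were not tested. Krt19 rose from 0.124 and 0.711 to 3.44 and 3.23 CPM and Krt7 from 0 and 0.284 to 1.60 and 1.48 CPM. Krt80 rose from 3.86 and 5.61 to 12.2 and 11.2 CPM.

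Transcripts that tie basal cell carcinoma to the hair follicle were mainly lower, 11 of 18 tested, with 4 higher. At least 2-fold were 7 of the falls and 2 of the rises. In this group 83.3% passed the test, against 61.9% of all tested genes. The genes named next are all falls. The stem cell receptor gene Lgr6 fell from 9.33 and 8.24 to 1.53 and 1.48 CPM (log2 change -2.55 ± 0.21, adjusted p = 3.1e-11). Dlx3, needed for the hair shaft, fell from 34.2 and 31.3 to 11.1 and 9.84 CPM, and Nfatc1, a factor of bulge stem cells, from 42.7 and 37.6 to 16 and 13.8 CPM. Msx2 fell from 20.9 and 19.8 to 6.87 and 6.82 CPM. Sox9, a factor of follicle stem cells and of basal cell carcinoma, fell less, from 412 and 415 to 305 and 300 CPM.

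Hedgehog pathway genes did not move together, 6 lower and 4 higher of 13 (76.9% past the test, against 61.9% of all tested genes). The activator gene Gli2 rose from 10.9 and 10.4 to 14.3 and 13.4 CPM (adjusted p = 0.0629 with DESeq2) and the receptor gene Ptch1, itself a Hedgehog target, from 11.7 and 11.2 to 14.9 and 16.7 CPM. Gli1, the target most used as a readout, was at 3.23 and 1.71 CPM in NS and 1.37 and 1.55 CPM in knockdown libraries (log2 change -0.78 ± 0.31, adjusted p = 0.0329). Its fall rests on NS replicate 1, without which the log2 change was -0.21 (adjusted p = 0.681), and the call was also lost without knockdown replicate 1 (0.143), without knockdown replicate 2 (0.0846) and with DESeq2 (0.219). Smo, the signal transducer, did not pass (adjusted p = 0.145, and 0.0334 without knockdown replicate 1). Of the co-receptors, Boc fell from 36.6 and 38.7 to 10.4 and 9.70 CPM and Gas1 from 263 and 241 to 116 and 99.6 CPM. The inhibitor gene Sufu fell from 69.5 and 71.9 to 36.7 and 35.3 CPM. Mycn, counted here and in the Myc network, had 0 counts in NS and 86 in knockdown libraries, at least 31.6-fold higher.

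Some matrix genes fell far. Col11a1, a minor fibrillar collagen often raised in tumour stroma, went from 118 and 127 to 0.611 and 1.41 CPM (log2 change -6.88 ± 0.14, adjusted p = 4.03e-20), 118-fold lower. Fbn2, fibrillin 2, a scaffold of elastic microfibrils that also binds latent TGF-beta complexes, went from 252 and 195 to 9.17 and 9.84 CPM. Prelp, a small leucine-rich proteoglycan of basement membranes, went from 46.5 and 38.4 to 1.68 and 1.97 CPM. In all 3 the knockdown values were far below both NS values.

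Of 15 tested collagen genes 8 were lower and 3 higher, and 6 of the falls reached 2-fold. In this group 73.3% passed the test, against 61.9% of all tested genes. Col7a1, the anchoring fibril collagen, fell from 679 and 662 to 285 and 290 CPM and Col9a3 from 16.7 and 12.1 to 1.99 and 1.90 CPM. The paired chains of basement membrane collagen IV moved apart: Col4a1 fell from 674 and 690 to 374 and 372 CPM while Col4a2, which shares its promoter region, rose from 771 and 777 to 937 and 943 CPM. Col4a5 rose from 285 and 284 to 445 and 422 CPM. Of 19 tested elastic fibre and other matrix genes 12 were lower and 2 higher (73.7% past the test). Matn2 fell from 78.3 and 75 to 17.9 and 17.1 CPM, Fbln2, a fibulin, from 46.8 and 47.0 to 14.3 and 15.0 CPM, and Tnc, tenascin C, from 1348 and 1314 to 718 and 780 CPM. The laminin chain gene Lamc1 rose from 298 and 302 to 559 and 584 CPM, and the fibronectin receptor chain gene Itga5 fell from 46.1 and 47.6 to 26.1 and 23.5 CPM.

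Proteases of the plasminogen system rose while tissue inhibitors fell. Plau, urokinase, was at 31.9 and 35.7 CPM in NS and 76.2 and 78.1 CPM in knockdown libraries (log2 change 1.20 ± 0.06, adjusted p = 1.62e-15), and its receptor gene Plaur went from 1.93 and 2.06 to 7.64 and 11.5 CPM. St14, matriptase, a membrane protease of epithelium, rose from 72.9 and 76.0 to 262 and 264 CPM. The metalloprotease inhibitor genes Timp3 and Timp2 fell, Timp3 from 2291 and 2255 to 1313 and 1291 CPM and Timp2 from 1426 and 1430 to 1101 and 1067 CPM. The aggrecanase gene Adamts5 fell from 115 and 123 to 27.4 and 31.9 CPM. The whole group of proteases and inhibitors held 10 higher and 13 lower of 26 (88.5% past the test, against 61.9% of all tested genes).

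Markers of epithelial-mesenchymal transition, which TGF-beta promotes in many epithelia, were divided. Cdh2, N-cadherin, fell from 258 and 266 to 83.9 and 90.1 CPM and Zeb1, a repressor of epithelial genes, from 5.60 and 4.69 to 0.840 and 0.984 CPM. Its relative Zeb2 rose from 7.46 and 6.54 to 11.5 and 12.8 CPM, and Twist1, another inducer, from 10.8 and 10.8 to 18.5 and 20.4 CPM. Epcam, an epithelial adhesion gene, rose from 184 and 171 to 319 and 309 CPM, and Cdh1, E-cadherin, by 0.16 ± 0.03 on the log2 scale. Vim, vimentin, was at 1.37 and 0.284 CPM in NS and 1.83 and 1.41 CPM in knockdown libraries (adjusted p = 0.0947, 0.00111 without NS replicate 1 and 0.028 without the filter on low counts). Cldn4, a tight junction claudin, rose from 3.98 and 5.12 to 40.3 and 39.0 CPM.

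**Figure D4:**
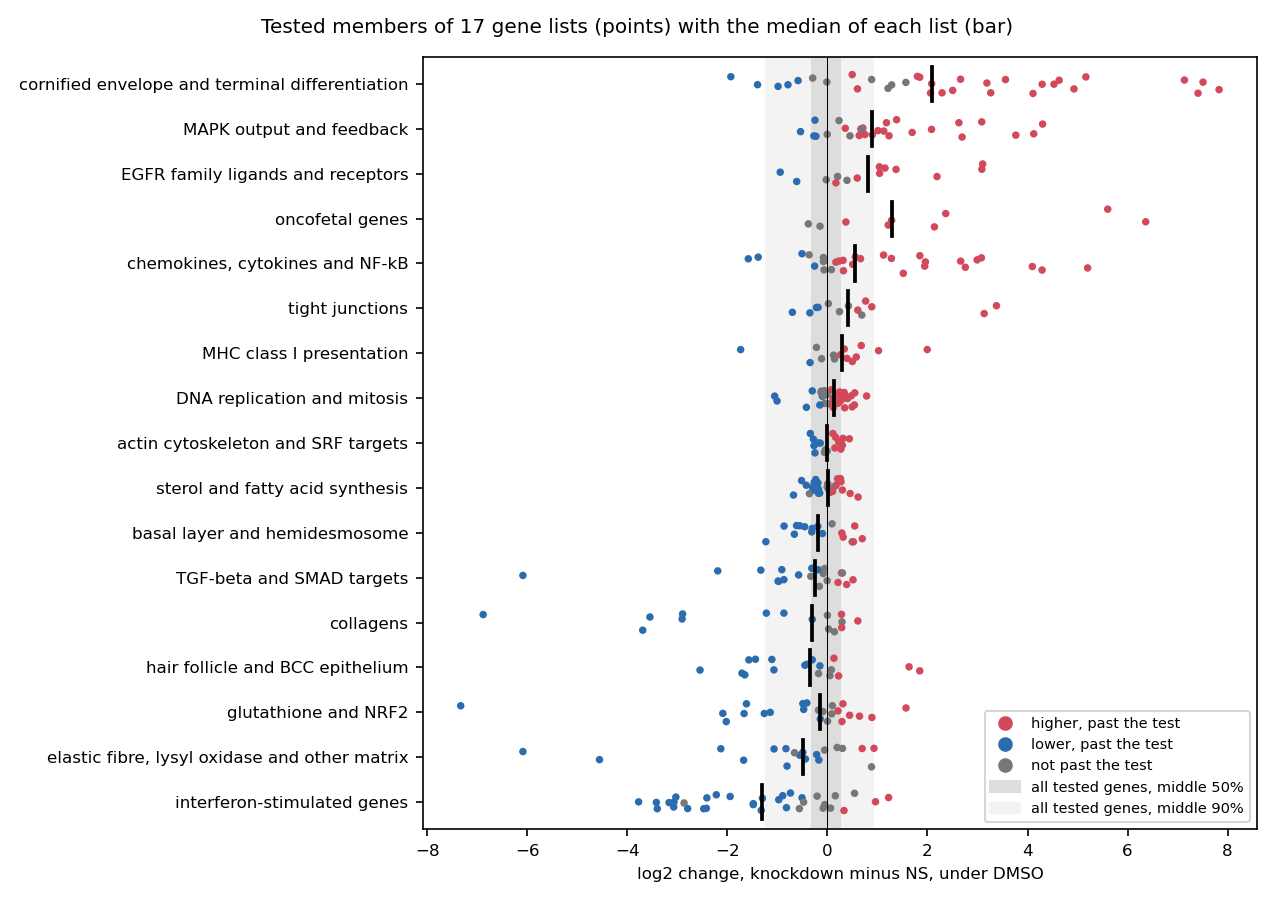
Log2 change, knockdown minus NS under DMSO, of the tested members of 17 gene lists (points), coloured where the gene passed the test, with a bar at the median of the list. Shading gives the middle 50% and the middle 90% of all 12538 tested genes. Cornified envelope, oncofetal, MAPK, EGFR and chemokine members extend far to the right, while interferon-stimulated, matrix, collagen and glutathione members extend to the left, and sterol and actin lists stay near 0.

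Genes that report ERK activity were higher although no Dox-4OHT had been given. Etv5 and Etv4 are ETS factors induced by ERK. Etv5 stood at 3.11 and 3.41 CPM in NS and 40.2 and 48.2 CPM in knockdown libraries, and Etv4 at 10.7 and 11.8 against 91.5 and 98.8 CPM. The ERK phosphatase gene Dusp6 went from 16.2 and 21.3 to 73.3 and 83.9 CPM, and Egr1, an immediate early factor, from 14.1 and 14.5 to 43.4 and 48.8 CPM. Spry4, a feedback inhibitor of receptor signalling, was at 0.187 and 0.142 CPM in NS and reached 2.14 and 4.64 CPM in knockdown libraries (log2 change 4.30 ± 0.51, adjusted p = 4.23e-07). All of these were higher in both knockdown libraries than in either NS library.

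Of 27 tested genes of MAPK output and feedback 19 were higher and 4 lower, and 13 rises reached 2-fold and no fall did. Among all tested genes 30.9% were higher and 31.0% lower, and 10.7% changed at least 2-fold in either direction. Dusp1, also an immediate early phosphatase, was at 15.2 and 15.6 against 15.4 and 15.2 CPM (adjusted p = 0.967). Among AP-1 subunits, 5 of 11 were higher and 2 lower (63.6% past the test, against 61.9% of all tested genes). Fosl1 rose from 1.37 and 1.42 to 13.1 and 14.6 CPM, whereas Fosl2 fell from 579 and 569 to 224 and 219 CPM and Jun from 199 and 202 to 120 and 120 CPM. The rise of Etv1 rests on 4 counts against 0, at least 1.47-fold. Its adjusted p was 0.0399, and the call was lost without NS replicate 1 (0.14), NS replicate 2 (0.118) or knockdown replicate 1 (0.218), with DESeq2 (0.0779) and without the filter on low counts (0.0611).

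Ligands of the EGF receptor rose with them. Ereg, epiregulin, went from 1.99 and 2.06 to 16.7 and 18.1 CPM (log2 change 3.10 ± 0.16, adjusted p = 2.16e-15) and Epgn, epigen, from 11.4 and 12.6 to 51.0 and 58.2 CPM. Tgfa rose from 26.4 and 27.0 to 68.9 and 69.1 CPM. Egfr itself stood at 172 and 172 against 174 and 164 CPM and did not pass (adjusted p = 0.621). Lrig1, which promotes loss of the receptor, and its relative Lrig3 fell by 0.61 and 0.94 on the log2 scale. The group held 9 higher and 2 lower of 14 tested (78.6% past the test, against 61.9% of all tested genes). Of the Ras genes, Hras was at 176 and 179 CPM in NS and 57.9 and 58.6 CPM in knockdown libraries, while Nras rose from 248 and 249 to 358 and 372 CPM.

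Oncofetal genes, active in the embryo and again in tumours, were higher in 7 of 9 tested cases and lower in none. Over all tested genes 30.9% were higher. Hmga2, a chromatin protein gene, went from 1.62 and 1.14 to 64.6 and 71.5 CPM (log2 change 5.60 ± 0.13, adjusted p = 2.07e-23). The imprinted RNA H19 went from 0.124 and 0.142 to 11.5 and 11.8 CPM, and it entered the test only through its level in knockdown cells. Of the Igf2bp family, which binds mRNAs of growth genes, Igf2bp2 rose from 27.7 and 28.8 to 123 and 125 CPM and Igf2bp3 from 61.6 and 68.6 to 151 and 150 CPM, and Igf2bp1 less (0.37 ± 0.05 on the log2 scale). Lin28b, which blocks let-7 maturation, did not pass (adjusted p = 0.301). Myc fell from 132 and 137 to 98.4 and 104 CPM.

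Chemokine and adhesion genes downstream of NF-kB were higher. Icam1, the leukocyte adhesion receptor gene, stood at 2.86 and 3.13 CPM in NS and 51.9 and 50.5 CPM in knockdown libraries (log2 change 4.10 ± 0.11, adjusted p = 5.64e-22). Cxcl1, which attracts neutrophils, went from 1.24 and 1.85 to 13.4 and 12.5 CPM and Csf1, the macrophage growth factor, from 11.4 and 12.1 to 44.0 and 46.4 CPM. The epithelial alarm cytokine Tslp had 1 count in NS and 43 in knockdown libraries, a ratio of 47.5 (95% interval 8.07 to 1917). Ptgs2, cyclooxygenase 2, rose from 73.5 and 80.5 to 154 and 180 CPM. The NF-kB feedback inhibitor gene Nfkbia rose from 40.1 and 40.9 to 58.5 and 56.4 CPM, whereas the subunit gene Rela did not pass (adjusted p = 0.0939, and 0.0268 without knockdown replicate 2) and Il18 fell from 6.47 and 6.96 to 2.37 and 2.11 CPM. Of 42 genes found in this group 29 were tested, 20 higher and 4 lower. Over all tested genes 30.9% were higher and 31.0% lower. Members such as Tslp entered the test only through their level in knockdown cells. The count of lower genes was 1 without NS replicate 1, without knockdown replicate 1 or with DESeq2.

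The promoters of 3 of these genes are shown because they hold the motif GGGANNTTC, part of the NF-kB site, in capitals on either strand.
Cxcl1, chr5:90891085-90891244, plus strand: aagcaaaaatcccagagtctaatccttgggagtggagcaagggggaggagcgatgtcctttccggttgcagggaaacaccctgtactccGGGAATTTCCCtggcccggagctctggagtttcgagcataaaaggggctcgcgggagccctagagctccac
Csf1, chr3:107760470-107760629, minus strand: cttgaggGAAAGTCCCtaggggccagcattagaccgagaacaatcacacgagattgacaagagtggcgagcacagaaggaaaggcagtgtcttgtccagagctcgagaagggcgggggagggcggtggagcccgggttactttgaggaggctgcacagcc
Nfkbia, chr12:55492648-55492807, minus strand: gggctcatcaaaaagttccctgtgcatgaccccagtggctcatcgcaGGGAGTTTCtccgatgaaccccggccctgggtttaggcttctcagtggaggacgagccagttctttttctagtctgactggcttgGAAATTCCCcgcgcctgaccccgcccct
In Cxcl1 2 matches overlap and begin 71 and 69 bases before the start, in Csf1 the match begins 153 bases before it, and in Nfkbia matches begin 113 and 28 bases before it. Of 16 promoters of members that were higher 5 (31.2%) held the motif in 250 bases, of 8 promoters of members that were lower 0, and of the 29 promoters of tested members in either direction 6 (20.7%), against 3.23% of all promoters.

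Interferon-stimulated genes were lower, the reverse of the NF-kB group. Of 43 found 34 were tested, 22 lower and 3 higher, with 17 falls of at least 2-fold and a median log2 change of -1.31. Among all tested genes 31.0% were lower and 30.9% higher, and 10.7% changed at least 2-fold in either direction. Irf9, the DNA-binding part of the complex that type I interferon activates, stood at 30.3 and 30.3 CPM in NS and 4.35 and 4.36 CPM in knockdown libraries (log2 change -2.79 ± 0.17, adjusted p = 2.45e-09). Stat2, another part of that complex, was at 22.1 and 21.2 against 25.4 and 20.1 CPM and did not pass (adjusted p = 0.578). The regulator gene Irf7 fell from 3.67 and 2.98 to 0.458 and 0.773 CPM.

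Effector genes were lower in the same libraries. Xaf1, a proapoptotic interferon target, went from 29.4 and 28.0 to 2.67 and 2.67 CPM. Isg15, a ubiquitin-like modifier, went from 6.22 and 4.33 to 1.15 and 1.12 CPM, and Usp18, which removes it, from 5.78 and 4.12 to 0.764 and 0.422 CPM. Ifit1, which binds viral RNA, went from 5.60 and 3.77 to 0.611 and 0.281 CPM, while its relative Ifit2 was at 34.1 and 33.2 against 35.9 and 39.1 CPM (adjusted p = 0.0567, 0.021 without knockdown replicate 1 and 0.0424 without the filter on low counts). Irf1, which NF-kB and interferon gamma both induce, was higher, at 38.6 and 39.8 CPM against 16 and 17.7 CPM. Leaving out single libraries gave 16 or 17 lower members. DESeq2 gave 20 lower and 1 higher.

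Promoters of 3 genes that fell are shown with the motif GAAANNGAA in capitals, the core of the interferon-stimulated response element that the complex with Irf9 binds.
Isg15, chr4:156200819-156200978, minus strand: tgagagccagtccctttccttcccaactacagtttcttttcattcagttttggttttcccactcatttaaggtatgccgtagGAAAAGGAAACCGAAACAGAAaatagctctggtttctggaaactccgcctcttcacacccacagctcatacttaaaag
Ifit1, chr19:34640729-34640888, plus strand: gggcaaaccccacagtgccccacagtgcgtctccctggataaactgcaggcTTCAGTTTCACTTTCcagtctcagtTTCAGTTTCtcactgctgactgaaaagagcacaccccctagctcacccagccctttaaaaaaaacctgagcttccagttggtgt
Ifit3, chr19:34583369-34583528, plus strand: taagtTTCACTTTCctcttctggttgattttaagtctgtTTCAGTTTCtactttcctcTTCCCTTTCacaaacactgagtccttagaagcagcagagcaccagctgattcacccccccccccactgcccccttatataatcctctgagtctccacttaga
Each window holds 3 matches, beginning 78, 72 and 66 bases before the start in Isg15, 109, 103 and 84 in Ifit1 and 155, 121 and 102 in Ifit3. Matches in Isg15, and the first 2 in Ifit1, overlap. Ifit3 fell from 1.87 and 1.85 to 0.764 and 0.562 CPM. Of 17 promoters of members that were lower 7 (41.2%) held the motif within 250 bases, against 7.13% of all promoters and 34.4% of the 32 promoters of tested members in either direction.

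Genes that display antigen on MHC class I did not follow the interferon group, and 71.4% passed the test, against 61.9% of all tested genes. H2-K1 and H2-D1, the classical heavy chains, rose from 16.9 and 17.4 to 32.8 and 36.7 CPM and from 49.9 and 50.2 to 80.8 and 79.3 CPM. The non-classical H2-T23 fell from 8.96 and 6.82 to 2.83 and 1.97 CPM. Reads of H2 genes may be shared between similar members. Of 14 tested, 8 were higher and 2 lower, or 4 and 1 without NS replicate 2. H2-M3 lost its call without that library (adjusted p = 0.0772), and 1 was lower without knockdown replicate 1 or with DESeq2.

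**Figure D5:**
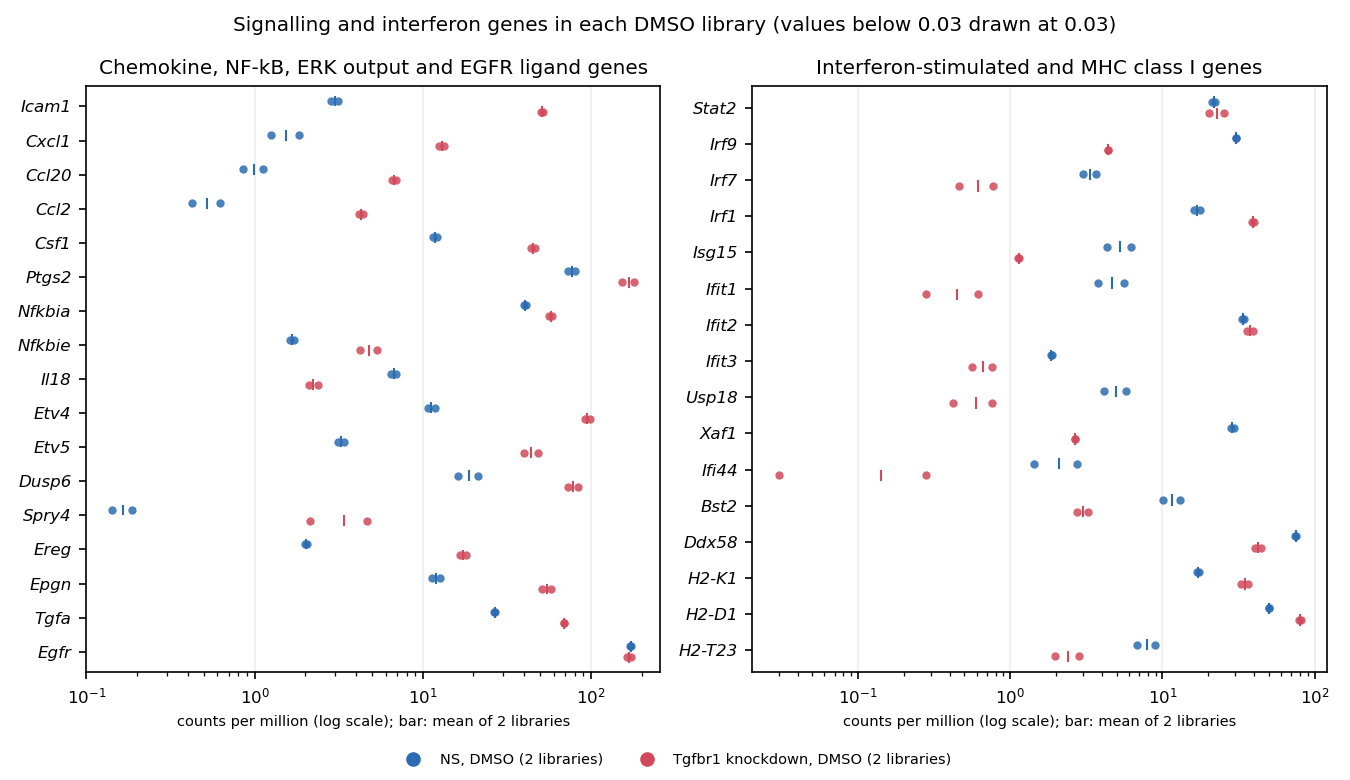
CPM on a log scale of ERK, EGFR ligand, chemokine and NF-kB genes (left) and interferon-stimulated and MHC class I genes (right) in each NS library (blue) and knockdown library (red) under DMSO, with a bar at the mean of the 2. At left all genes but Il18 and Egfr lie to the right in knockdown cells, and at right Irf9, Irf7 and the effector genes other than Ifit2 lie to the left while Irf1, H2-K1 and H2-D1 lie to the right.

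Among abundant genes, those with at least 100 CPM on average, the largest rises were of Afap1l1, an actin filament adaptor gene (29.9 and 32.5 to 175 and 176 CPM), St14 and Igfbp7, which binds insulin-like growth factors (138 and 144 to 468 and 475 CPM). Nrp1, a co-receptor for semaphorins and VEGF, followed with 55.9 and 57.1 to 168 and 186 CPM. Of the largest falls several encode actin-binding proteins. Synpo, synaptopodin, fell from 464 and 488 to 79.2 and 75.5 CPM (log2 change -2.62 ± 0.04, adjusted p = 6.45e-26) and Dbn1, drebrin, from 205 and 218 to 33.5 and 29.9 CPM. Akap2 and Pakap, which overlap so that their reads cannot be told apart, fell by 3.11 and 3.09 on the log2 scale. Cbfb, the partner of RUNX factors, fell from 219 and 217 to 38.2 and 41.3 CPM. The wider list of actin and SRF target genes changed little in size, 8 higher and 6 lower of 17 with none at 2-fold. In this list 82.4% passed the test, against 61.9% of all tested genes.

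Other large changes fell in none of these groups. Pcdh17, a protocadherin gene, had 2 counts in NS and stood at 12.1 and 15.8 CPM in knockdown libraries, a ratio of 211 (95% interval 58.0 to 1747). Nrk, a kinase gene, rose from 1.49 and 1.42 to 29.3 and 28.1 CPM and Wfdc2, a secreted epithelial protein gene, from 1.37 and 1.42 to 27.3 and 25.6 CPM. Among falls, the glutathione transferase gene Gsta3 went from 28.6 and 33.4 to 0.153 and 0.211 CPM (log2 change -7.33 ± 0.25, adjusted p = 1.93e-19). Cyp4b1, a cytochrome P450 gene, went from 48.4 and 48.6 to 1.53 and 0.703 CPM, and Dclk1, a doublecortin-like kinase gene, from 86.9 and 80.6 to 5.96 and 5.2 CPM. Kcnh1, a potassium channel gene, went from 26.2 and 23.7 to 0.917 and 0.703 CPM, Tenm2, a teneurin gene, from 15.7 and 14.8 to 0 and 0.422 CPM, and Slit3, a guidance ligand gene, from 11.8 and 12.6 to 0.153 and 0.422 CPM. Ptger3, a prostaglandin E receptor gene, had 251 counts in NS and 2 in knockdown libraries, a ratio of 114 (31.2 to 944), and Fxyd6 had 91.5 against 0, at least 27.6-fold lower. The 2 groups did not overlap in any of these genes. For the largest rises and falls this was a condition of the choice.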

How the data were processed

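RNA of ASZ001 cells was sequenced on an Illumina HiSeq 4000, per the labels' protocols. The values the authors deposited are estimated counts, all multiples of 0.5, in 1 table of genes by samples. The submitters' processing notes name TopHat, HOMER, DESeq2 and the build mm9, with versions not given in the sources used here. Values were rounded to whole counts for the tests, and CPM was computed from the rounded counts with TMM-scaled library sizes, so that a deposited 0.5 can give 0 CPM. Of 24907 gene symbols, 12538 passed edgeR's filter on low counts (filterByExpr). One model with TMM scaling over the 8 libraries and their 4 groups, as labelled, was tested with edgeR 4.0.16 (R 4.3.3, quasi-likelihood F test, Benjamini-Hochberg adjustment over all tested genes, threshold 0.05), after a check on simulated data. SE is the absolute log2 change divided by the square root of F. The design had assumed whole counts. DESeq2 1.42.0 and the other alternatives are in the closing section.

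The rule for naming genes covered Tgfbr1 and all ligand, receptor, SMAD and latent store genes. It also took the 12 largest rises and falls at a mean of at least 5 CPM and the 8 largest at a mean of at least 100 CPM. Per list it took up to 6 genes with the smallest p and up to 2 not past the test. Up to 5 genes near 0 in 1 group were added. Not every gene under this rule is given in the text. The largest rises and falls were taken from genes past the test whose groups did not overlap. A further 39 genes were chosen after their values were seen. The comparison and the 53 gene lists were chosen with earlier results of these data known. For genes with at most 3 counts in a group, ratios have exact 95% intervals, and a count of 0 was set to a floor of 3 counts over the group. Both cover counting error only. RPKM used the gene lengths of the deposited table. Promoters are from a RefSeq table (GRCm38.p6, 27025 genes, 32851 starts), matched by symbol. Each motif was searched alone on both strands in the 250 bases before the start, overlapping matches included, and none of them contains another. Some results are not reported here.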

Additional observations from a re-analysis of the deposited data

Results flagged for a closer look

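The knockdown difference under DMSO was compared with that under Dox-4OHT by an interaction term in the same model, for Tgfbr1 and 24 genes, the 12 largest rises and 12 largest falls under DMSO among called genes with a mean of at least 5 CPM and no overlap between groups. It passed an adjusted p of 0.05 in 10 of these 25 genes, and each of the 10 is given here because its 2 differences were not the same size. All 25 had the same sign under both treatments, although for Sema3d the difference under Dox-4OHT did not pass the test (log2 change -0.76, adjusted p = 0.2875). Values are the log2 change under Dox-4OHT minus that under DMSO, so among genes that rose a negative value is a smaller rise under Dox-4OHT. Of the rises, Wfdc2 (-1.72), Hmga2 (-1.35) and Lor (-0.92) were smaller and Sprr1b (0.54) was larger under Dox-4OHT. Sprr1b did not pass without NS DMSO replicate 2 (0.35, adjusted p = 0.296). Of the falls, Sema3d (2.81), Slit3 (2.27), Myom2 (1.82), Plb1 (1.65), Dclk1 (1.53) and Col11a1 (1.34) were smaller under Dox-4OHT. Col11a1 did not pass without knockdown DMSO replicate 1 (0.87, adjusted p = 0.141). Sema3d stood at 0.386 and 0.586 CPM in NS cells under Dox-4OHT, against 10.4 and 9.81 CPM under DMSO. Tgfbr1 had a value of -0.31 (adjusted p = 0.118), which passed without knockdown DMSO replicate 2 (-0.48, adjusted p = 0.0384). Gsta3 (4.08), Rptn (4.05) and Fbn2 (0.78) did not pass in the main model. With the replicate number as a block they passed (4.10, 4.01 and 0.76, adjusted p 0.0465, 0.0478 and 0.0461). Without the filter on low counts Gsta3 and Rptn passed (4.07 and 4.04, 0.0385 and 0.034), as did Gsta3 with DESeq2 (4.01, 0.0107). Tenm2 (1.71) did not pass, and was 6.39 without knockdown DMSO replicate 2. The choice of the 24 genes rested on the size of the change under DMSO. The same DMSO values enter the interaction term, so the choice favours smaller differences under Dox-4OHT.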

How the results depend on the processing

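The counts of called genes kept within 1.5 times of 7763 under every alternative run: 5922 with DESeq2, 7766 with its size factors in edgeR, 7933 without the filter on low counts, 7677 with a stricter one, 7836 with only the 4 DMSO libraries and 7760 without Rn45s. Leaving out single libraries gave 6650 to 7066 called genes, 3402 to 3676 higher, 3233 to 3390 lower and 1310 to 1397 at least 2-fold changed, where the lone sample is assumed to vary like the other groups. With the replicate number as a block 7777 genes were called. The labels link same-numbered samples by a number only. The correlation of their deviations from the group means was 0.0147 between NS and knockdown libraries. These deviations include counting noise, so this value cannot decide whether same-numbered samples were handled together. Over 444 named genes and all alternatives, 4779 of 4876 values stayed on the same side of the threshold with the same direction, 44 lost the call, 53 gained it and 0 reversed a call. For genes in the report with a changed call, values or their range stand beside them, and the cause was not tested. Of 1166 counts of higher or lower list members, 20 moved by over 1.5 times. Groups of 2 libraries and levels of a few counts limit the precision.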

Other observations

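Several gene groups outside those above split between their members. Of 26 tested Hox genes, which record position along the body, 3 were higher and 7 lower (38.5% past the test, against 61.9% of all genes). Among the falls, Hoxb9 went from 95.9 and 98.5 to 24.8 and 22.6 CPM, Hoxd11 from 15.2 and 14.4 to 5.12 and 4.92 CPM and Hoxd10 from 11.7 and 11.8 to 4.12 and 4.64 CPM. Hoxa9, of the same position group as Hoxb9, rose from 31.8 and 32.7 to 45.2 and 43.4 CPM. Among glutathione and NRF2 genes 7 of 23 were higher and 11 lower (78.3% past the test). The factor gene Nfe2l2 and its target Txnrd1 rose, Txnrd1 from 78.4 and 86.8 to 152 and 153 CPM, whereas the cystine transporter gene Slc7a11 fell from 176 and 177 to 59.7 and 55.5 CPM and Aldh3a1 from 23.6 and 25.7 to 7.10 and 8.36 CPM. The retinoic acid hydroxylase gene Cyp26b1 fell from 103 and 90.2 to 35.4 and 31.3 CPM.

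Cell cycle genes moved by little. Of 36 DNA replication and mitosis genes 21 were higher and 8 lower, and the 2 changes of at least 2-fold were falls. In this group 80.6% passed the test, against 61.9% of all tested genes. The helicase subunit genes Mcm4, Mcm2 and Mcm3 rose by 0.78, 0.55 and 0.54 on the log2 scale, while Rrm2, a ribonucleotide reductase subunit gene, fell from 223 and 226 to 107 and 109 CPM. The count of lower genes was 5 without NS replicate 2, without knockdown replicate 2 or with DESeq2. Among Wnt genes, 9 were higher and 11 lower of 25 (80.0% past the test). Wnt4 fell from 533 and 512 to 237 and 217 CPM and Wnt7a rose from 13.7 and 15.7 to 42.1 and 46.7 CPM. Axin2, a common target, was at 5.16 and 5.54 against 5.73 and 5.48 CPM (adjusted p = 0.746). Notch3 rose from 2.49 and 2.49 to 15.6 and 12.5 CPM and Notch1 fell from 427 and 394 to 270 and 294 CPM, a call lost without NS replicate 1 (adjusted p = 0.0748) and without knockdown replicate 1 (0.0812). Of the growth factor binding proteins, Igfbp3 fell from 1272 and 1225 to 474 and 447 CPM. The angiogenic factor gene Vegfa fell from 14 and 15.1 to 4.43 and 3.58 CPM.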
